A study of Homo sapiens with 12 samples.

Results

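The genes described here are 233 zinc finger genes of chromosome 19. They were taken by symbol, as ZNF followed by a number and at most 1 letter, from array features that the platform annotation assigned to 1 gene, with that gene on chromosome 19. They are 233 of the 18417 genes tested, 225 of them protein-coding and 8 transcribed pseudogenes, and they were measured by 239 features. For the 5 genes with more than 1 feature (ZNF208, ZNF257, ZNF493, ZNF616 and ZNF626) the one whose mean over the arrays was highest was used. The RefSeq gene table lists 263 chromosome 19 symbols of this pattern. A further 22 features named several genes including at least 1 of this family and were not used.

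RNA was measured on one-colour Affymetrix arrays in MDA-MB-231 cells, a long-established line from a human triple-negative breast tumour, in their parental form and in a derivative labelled as treated to resistance (TTR). TRAIL is a death ligand of the tumour necrosis factor family, and the study asked what lets cells withstand it. Each form was measured untreated and after TRAIL at 100 ng per ml for 2 hours, with 3 arrays in each of the 4 groups and 12 in all. The labels name no transgene or allele, and they state neither how the TTR form was derived nor whether it is 1 clone. The sample descriptions carry a tag, minus on parental and plus on TTR arrays, whose meaning is not given. The labels also do not say that the arrays of a group came from separate cultures. The p-values rest on the spread within groups of 3 arrays, pooled over the 4 groups, and this spread may be technical.

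Most of these genes code for C2H2 zinc finger proteins that carry a KRAB domain in front of a row of DNA-binding fingers. KRAB binds TRIM28, which brings the histone methyltransferase SETDB1, HP1 proteins and the NuRD complex to the bound site, and many such proteins keep transposable elements silent. The family grew by tandem duplication, and in the human genome its largest clusters lie on chromosome 19. Near-identical copies can share probes, so the signal of any one of these genes may hold part of another's, and sequence identity between the genes was not analysed here.

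The values are the deposited log2 levels, changes are differences of group means on that scale, and ± gives the standard error (SE) from limma, fitted over all 12 arrays, with n = 3 arrays per group. A gene was called where its limma p-value, adjusted over all 18417 genes by Benjamini-Hochberg, was under 0.05. Levels of different features also depend on their probes and were not compared as amounts of RNA.

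The sequences upstream of 5 of the genes are shown because the results turn on them. ZNF121 and ZNF460 had the largest rises with TRAIL in TTR cells, ZNF627 had the largest fall in parental cells, and ZNF45 and ZNF227 had the largest falls in untreated TTR cells. Each is the 250 bases before the first start that RefSeq lists for the gene, in GRCh38.p14 and read along the gene's strand. The intervals are chr19:9584505-9584754 (minus strand) for ZNF121, chr19:57279732-57279981 (plus) for ZNF460, chr19:11597233-11597482 (plus) for ZNF627, chr19:43935283-43935532 (minus) for ZNF45 and chr19:44212282-44212531 (plus) for ZNF227. Capitals mark exact matches, on either strand, to 5 strings. They were TATAAA, known from the core promoter, TGACTCA, which AP-1 factors bind, TGACGTCA, the cAMP response element (CRE), GGGACTTTC, a form of the NF-kB site, and CCGGAAGT, a form of the site of ETS factors.
ZNF121: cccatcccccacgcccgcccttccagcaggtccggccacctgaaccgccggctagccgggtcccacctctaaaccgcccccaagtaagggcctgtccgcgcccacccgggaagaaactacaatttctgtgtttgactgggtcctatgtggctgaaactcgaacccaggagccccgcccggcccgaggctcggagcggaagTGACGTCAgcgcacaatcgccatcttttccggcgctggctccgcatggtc
ZNF460: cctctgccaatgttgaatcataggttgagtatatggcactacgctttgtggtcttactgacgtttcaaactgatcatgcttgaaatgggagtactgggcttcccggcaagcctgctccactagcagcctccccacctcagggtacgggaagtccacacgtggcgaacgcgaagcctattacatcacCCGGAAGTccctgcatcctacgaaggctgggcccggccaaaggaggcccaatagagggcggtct
ZNF627: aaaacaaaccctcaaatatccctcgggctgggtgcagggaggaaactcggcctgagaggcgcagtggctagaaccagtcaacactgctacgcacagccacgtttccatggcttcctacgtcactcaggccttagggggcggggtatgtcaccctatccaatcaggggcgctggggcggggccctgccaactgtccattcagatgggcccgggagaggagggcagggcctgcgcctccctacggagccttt
ZNF45: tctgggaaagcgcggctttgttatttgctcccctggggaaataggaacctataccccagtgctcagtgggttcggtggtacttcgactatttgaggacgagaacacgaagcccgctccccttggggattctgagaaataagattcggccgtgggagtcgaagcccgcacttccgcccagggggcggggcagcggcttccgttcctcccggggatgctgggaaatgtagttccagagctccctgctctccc
ZNF227: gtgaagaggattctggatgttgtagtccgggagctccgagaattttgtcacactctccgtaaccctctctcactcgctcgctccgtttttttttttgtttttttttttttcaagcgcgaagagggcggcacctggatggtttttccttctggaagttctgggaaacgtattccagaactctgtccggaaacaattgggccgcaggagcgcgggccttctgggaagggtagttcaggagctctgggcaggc

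ZNF121 held a CRE string that begins 50 bases before the start, and ZNF460 an ETS string that begins 64 bases before it. No 2 matches overlapped in these windows, and ZNF627, ZNF45 and ZNF227 held none of the 5 strings. The 250 bases before ZNF296, which are not shown, also held none, and ZNF296 was called higher with TRAIL in both lines. Over windows of 300 bases, which also take in the first 50 bases of the transcript, 200 of the 233 genes had a RefSeq entry. The ETS string stood in 41 of them (20.5%), against 15% of 193 ZNF genes of other chromosomes and 4.63% of 863 other chromosome 19 genes. It stood in 6.38% of the windows of all genes tested and 4.44% of all 27305 promoters in the table. TATAAA stood in 2% of the family's windows and 12% of all windows, TGACTCA in 1.5% and 4.92%, TGACGTCA in 3% and 1.98%, and GGGACTTTC in 0% and 0.366%. For ZNF genes of other chromosomes these shares were 3.63%, 3.11%, 4.15% and 0.518%, and for all genes tested 9%, 3.55%, 2.65% and 0.358%. The short GC-rich string GGCGG, which was not marked above, stood in 90.5% and 58.6%, and in 75.4% of the windows of all genes tested, 82.4% of those of other chromosome 19 genes and 86% of those of ZNF genes of other chromosomes. The median window of the family was 60.2% G or C, against 58.3% over all promoters, 63.0% over all genes tested, 63.0% in ZNF genes of other chromosomes and 64.3% in other chromosome 19 genes. These strings were kept after shares of a longer set had been seen, and a match is only a run of letters. Of the 41 genes with the ETS string, 11 were called higher and 15 lower with TRAIL in parental cells, against 43 and 46 of the 159 without it. Of all genes tested 28.9% were called higher and 29.9% lower. Calls of genes outside the family that hold the string were not counted, so nothing is read from these counts about the string.

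Mean levels of the 233 genes ran from 1.95 to 9.17, with a median of 4.91 and quartiles of 3.55 and 5.81. All genes tested had a median of 5.11, quartiles of 3.36 and 6.94 and a maximum of 13.1. ZNF257 (9.17), ZNF460 (8.97) and ZNF626 (8.84) had the highest means, and ZNF578 (1.95), ZNF676 (2.04) and ZNF471 (2.13) the lowest. Low levels can be background, since no detection call was used. ZNF626 read 9.02, 8.93 and 8.85 in untreated parental cells, 8.83, 8.85 and 8.83 with TRAIL, 8.85, 8.58 and 8.88 in untreated TTR cells and 8.81, 8.74 and 8.89 in TTR cells with TRAIL. These groups overlapped, and ZNF626 was not called in any comparison. The same was true of 87 of the 233 genes in all.

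The median level over the family, taken on each array, averaged 4.97 ± 0.05 (SD, n = 3) in untreated parental cells and 4.81 ± 0.03 with TRAIL. It was 4.84 ± 0.04 in untreated TTR cells and 4.79 ± 0.09 in TTR cells with TRAIL. The gene at the median can differ between arrays, and the median change of the genes with TRAIL in parental cells was 0.00. The lowest untreated parental array (4.93) lay above the highest array of the other 3 groups (4.89). Over all genes the median was 5.04 in untreated parental cells and 5.13 with TRAIL. The parental arrays with TRAIL stood apart from the other 9. The upper quartile of all genes was 6.68 to 6.74 there and 6.98 to 7.07 on the others. The part of this difference in the results with TRAIL was not tested, and the counts are therefore also given with the median of all 33252 features set equal on every array (median centring) and after quantile normalization. Centring moved the median change over all genes to −0.24 for TRAIL in parental cells, −0.11 for TRAIL in TTR cells, 0.14 for the lines compared under TRAIL and 0.15 for their difference in the TRAIL change. As for the cell line itself, 7 of 8 markers fixed for MDA-MB-231, such as VIM and CD44, had group means above 6.7, and SPARC stood at 3.97 to 4.62. The log2 of the summed level of these 8 was 13.07 to 13.84 across arrays, against 6.77 to 7.08 for 8 luminal breast markers, 6.40 to 6.88 for 7 blood markers and 6.37 to 6.63 for 8 markers of fibroblasts and endothelium.

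**Figure D1:**
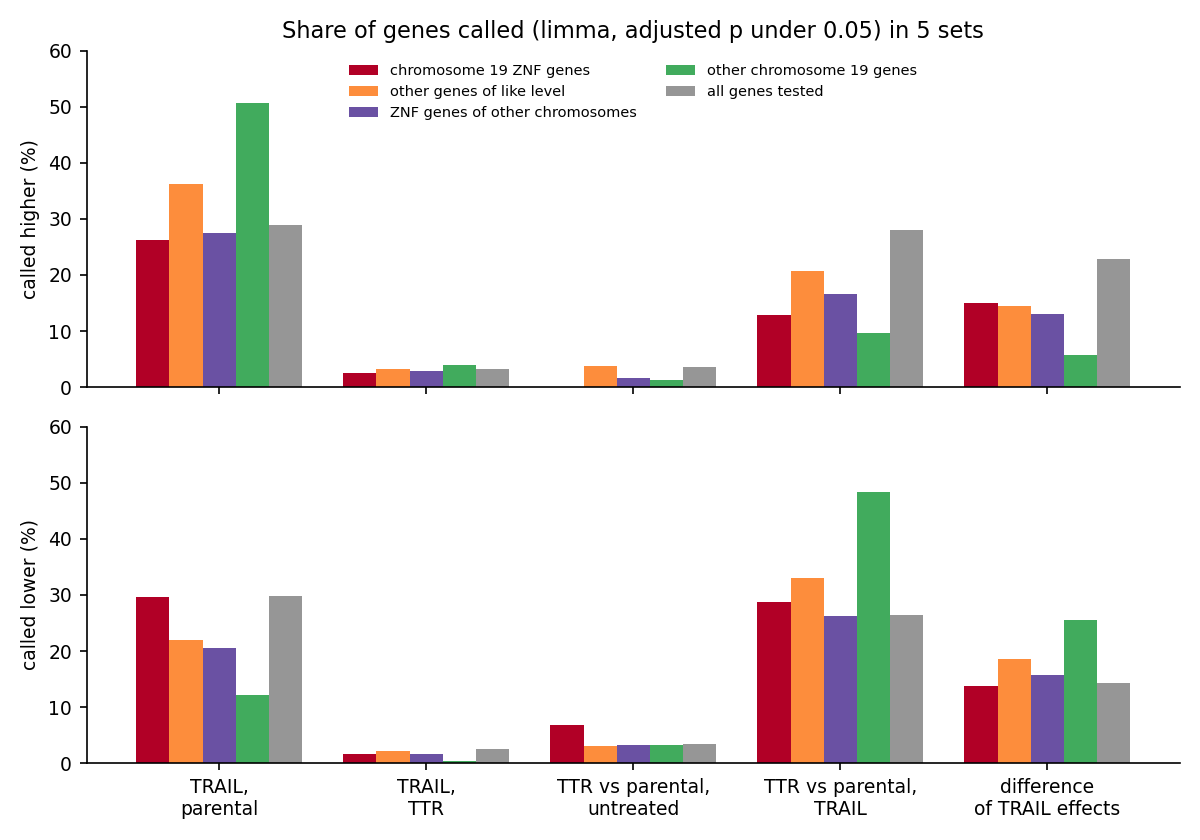
Share of genes called higher (top) and lower (bottom) in each of the 5 comparisons, in percent, for the 233 chromosome 19 ZNF genes, other genes weighted to the same levels, 247 ZNF genes of other chromosomes, 1075 other chromosome 19 genes and all 18417 genes. In untreated TTR against parental cells the chromosome 19 ZNF genes had 0% called higher and 6.87% called lower.

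With TRAIL, most of the family changed in parental cells within 2 hours, in both directions. Of the 233 genes, 61 were called higher and 69 lower, 130 in all, against 58.8% of all genes called, 28.9% higher and 29.9% lower. The family's shares were 26.2% higher and 29.6% lower, close to these backgrounds. Among other genes weighted to the family's levels 36.2% were higher and 22% lower. The median change of the family was 0.00, against 0.05 over all genes and 0.14 in the genes of like level. The other 1075 chromosome 19 genes rose more often, with 50.6% higher, 12.1% lower and a median of 0.28, and the 247 ZNF genes of other chromosomes had 27.5% higher and 20.6% lower. The split of the calls depended on scaling, since rises made up 46.9% of the family's calls in the deposited values, 21.6% after median centring (32 higher, 116 lower) and 34.5% after quantile normalization (49 higher, 93 lower). Of all genes 12.6% were higher and 46.7% lower after centring, and 19.1% and 31.4% after quantile normalization, against 13.7% and 49.8%, and 21% and 39.9%, of the family. Called rises ran from 0.25 to 2.11 with a median of 0.59, called falls from −1.54 to −0.25 with a median of −0.62, and 10 genes passed 2-fold in each direction. The share of all genes passing 2-fold was not counted.

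The rises and falls were spread over the levels in another way than in other genes. Among the 78 family genes with mean levels of 1.95 to 4.12, 10 were higher and 12 lower with TRAIL, and of 6759 other genes, weighted within this range to the family's levels, 27.2% were higher and 3.23% lower. Between 4.15 and 5.50, 20 of 77 were higher and 31 lower, while 51.7% of the other genes, weighted in the same way, were higher and 18% lower. From 5.52 up, 31 of 78 were higher and 26 lower, and of 8196 other genes 30.1% were higher and 44.7% lower after this weighting (22.3% and 56.7% before it, with levels up to 13.1). The difference between these sets was not tested.

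ZNF844 had the largest rise. Its level was 3.81, 3.96 and 4.0 on the untreated parental arrays and 5.45, 6.31 and 6.35 with TRAIL. The groups did not overlap, the treated arrays spread more widely, and the change was 2.11 ± 0.19, or 4.32-fold (limma adjusted p = 5.03e-08). ZNF296, a factor without a KRAB domain that is known in mouse stem cells as a heterochromatin-binding protein, read 5.70, 5.56 and 5.50 untreated and 7.49, 7.79 and 7.33 with TRAIL. All treated arrays were higher by more than the spread within either group, with a change of 1.95 ± 0.12 (limma adjusted p = 9.02e-10).

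ZNF121 and ZNF460 rose 3.03-fold and 2.94-fold. ZNF121 read 7.85, 7.99 and 7.57 untreated and 9.35, 9.51 and 9.35 with TRAIL, and ZNF460 read 8.36, 8.62 and 8.48 untreated and 9.86, 10.15 and 10.11 with TRAIL. Neither gene's groups overlapped. The changes were 1.60 ± 0.11 for ZNF121 (limma adjusted p = 4.84e-09) and 1.55 ± 0.11 for ZNF460 (3.48e-09). ZNF814 was the least even of the large rises, with 3.45, 4.44 and 4.43 untreated, 5.05, 6.21 and 5.94 with TRAIL and a change of 1.63 ± 0.27 (limma adjusted p = 5.97e-05). Array 1 was the lowest in both of its groups, and the groups did not overlap. ZNF417, known as a repressor of HERV-K elements, rose by 1.32 ± 0.13, ZNF442 by 1.16 ± 0.14 and ZNF324 by 1.03 ± 0.13.

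Among the falls ZNF627 was the largest. It read 5.68, 5.90 and 5.63 untreated and 4.28, 3.98 and 4.35 with TRAIL, with no overlap. The change was −1.54 ± 0.13, or 2.90-fold lower (limma adjusted p = 3.37e-08). ZNF45 read 6.04, 6.12 and 5.90 untreated and 4.73, 4.78 and 4.41 with TRAIL, again with no overlap, and its change was −1.38 ± 0.13 (limma adjusted p = 7.81e-08). ZNF146, which consists of fingers with no KRAB domain, read 7.59, 7.51 and 7.24 untreated and 6.41, 6.08 and 6.19 with TRAIL, and its change was −1.22 ± 0.17 (limma adjusted p = 1.39e-05). ZNF675, which is known to bind TRAF6 and to restrain NF-kB signalling, changed by −1.25 ± 0.15. ZNF416 changed by −1.33 ± 0.14, ZNF468 by −1.20 ± 0.19, and ZNF155 and ZNF528 by −1.19 ± 0.10 and −1.19 ± 0.13. All 16 genes named for this comparison kept their direction and their call under the alternatives fitted gene by gene, the 2 scalings included.

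**Figure D2:**
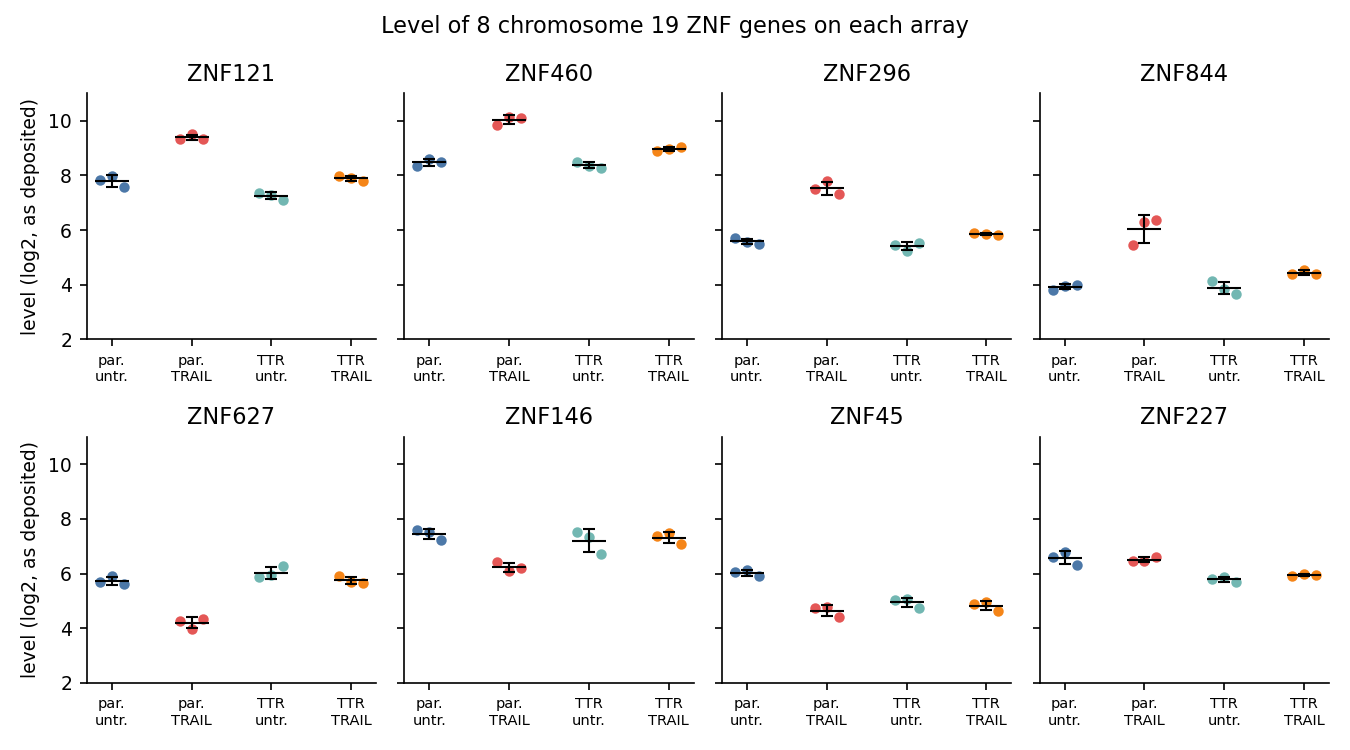
Deposited log2 level of 8 genes on each of the 12 arrays, by group (par., parental; untr., untreated), with the mean of 3 arrays as a bar and its SD as the error. ZNF121, ZNF460, ZNF296 and ZNF844 were highest in parental cells with TRAIL, ZNF627 and ZNF146 were lowest there, ZNF45 was highest in untreated parental cells, and ZNF227 was lower in both TTR groups.

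Some family members have known targets, and 5 of them, chosen after their values were seen, are given next. ZNF91, which represses SVA retrotransposons, read 5.68, 5.63 and 5.59 untreated and 6.44, 6.86 and 6.64 with TRAIL in parental cells, a rise of 1.01 ± 0.16 with no overlap (limma adjusted p = 4.36e-05). ZNF93, which represses L1 elements, changed the other way, from 6.23, 5.71 and 5.83 to 5.36, 5.46 and 5.17 (−0.59 ± 0.14, limma adjusted p = 0.00207), without overlap. ZNF350, also called ZBRK1 and known as a partner of BRCA1, changed by −0.62 ± 0.12 (limma adjusted p = 2.03e-04). ZNF274, which directs SETDB1 to the 3′ ends of ZNF genes, was not called (0.23 ± 0.11), nor was ZNF331, an imprinted gene (0.04 ± 0.11).

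In TTR cells TRAIL changed few of the genes past the threshold. Of the 233, 6 were called higher (2.58%) and 4 lower (1.72%), against 5.82% of all genes called, 3.27% higher and 2.55% lower, and against 3.17% and 2.23% of genes of like level. The median change was 0.01, and −0.01 over all genes. The higher genes were ZNF121, ZNF460, ZNF708, ZNF526, ZNF296 and ZNF543, and the lower ones ZNF420, ZNF772, ZNF415 and ZNF155. ZNF121 read 7.36, 7.27 and 7.11 untreated and 7.96, 7.92 and 7.79 with TRAIL, a rise of 0.64 ± 0.11 without overlap (limma adjusted p = 0.00299). ZNF460 read 8.49, 8.36 and 8.26 untreated and 8.88, 8.98 and 9.04 with TRAIL, a rise of 0.60 ± 0.11 without overlap (limma adjusted p = 0.00341). ZNF772 read 5.80, 5.81 and 6.08 untreated and 5.40, 5.41 and 5.37 with TRAIL, and changed by −0.50 ± 0.10 (limma adjusted p = 0.00793). ZNF420, known as a KRAB protein that restrains p53, changed by −0.57 ± 0.16 (limma adjusted p = 0.0425), ZNF415 by −0.50 ± 0.12 (0.0208) and ZNF155 by −0.38 ± 0.10 (0.0325). ZNF708 rose by 0.54 ± 0.12 (limma adjusted p = 0.0166), ZNF526 by 0.47 ± 0.12 (0.0316), ZNF296 by 0.45 ± 0.12 (0.0363) and ZNF543 by 0.44 ± 0.11 (0.0329).

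These 10 calls were not stable. Arrays of the 2 TTR groups with the same number deviated together, and limma, fitted to these 2 groups alone with the number as a block, called 24 of the genes. Without TTR TRAIL array 1, 2 or 3 the count was 6, 3 or 5, and without TTR untreated array 2 or 3 it was 4 or 5. The share of all genes called was not counted under these fits. Requiring a 2-fold change left 0 of the 10. Under the alternatives fitted gene by gene, which leave this requirement aside, ZNF121, ZNF460 and ZNF772 kept their call, with adjusted p-values up to 0.0454. The other 7 each lost it when at least 1 array was left out, with adjusted p-values up to 0.167. Scaling turned the split, since rises were 60% of the calls in the deposited values, 10.7% after median centring (3 higher, 25 lower) and 20% after quantile normalization (2 higher, 8 lower). Of all genes 2.43% were higher and 10.6% lower after centring, and 2.44% and 2.75% after quantile normalization.

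All 6 genes called higher in TTR cells were also called higher in parental cells, where they were 9.84% of the 61 risers. All 4 called lower in TTR cells were among the 69 parental fallers, 5.8% of them. These 2 comparisons share no arrays. Of the 61 parental risers 55 were above 0 in TTR cells, with a median change of 0.17 there, and of the 69 parental fallers 58 were below 0, with a median of −0.17. These overlaps and signs were not counted over all genes, so they are not read as particular to the family.

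**Figure D3:**
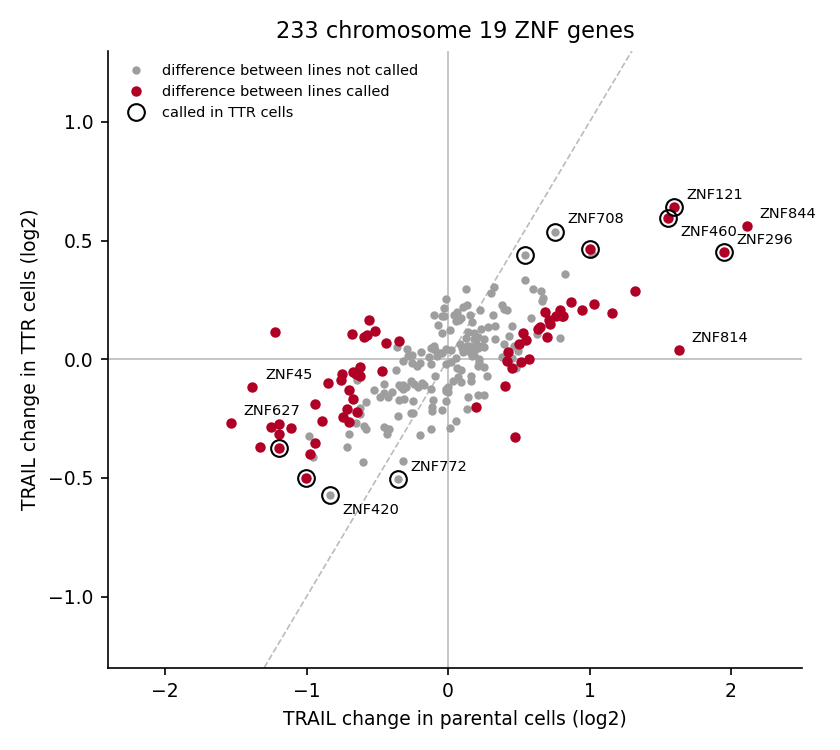
TRAIL change (log2) of each of the 233 genes in parental cells (horizontal) and in TTR cells (vertical), where the dashed line marks equal changes. Red points are the 67 genes whose change was called different between the lines, and rings mark the 10 genes called in TTR cells. Red points lie nearer 0 on the vertical than on the horizontal axis in 66 of 67 cases, which was not counted over all genes.

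How far the TRAIL change differed between the lines had its own test, and a positive value means a more positive change in TTR cells. It was called for 67 of the 233 genes, 35 higher (15%) and 32 lower (13.7%), against 37.2% of all genes, 22.9% higher and 14.3% lower. Genes of like level had 14.4% and 18.5%. In 66 of the 67 the TTR change was nearer 0 than the parental change. That count was not made over all genes and is not read as a trait of the family. TRAIL called 58.8% of all genes in parental and 5.82% in TTR cells. Of the 67, 60 were called for TRAIL in parental cells only, 6 in both lines and 1 in neither. That 1 gene, ZNF556, stood at low levels and changed by 0.20 ± 0.09 in parental and −0.20 ± 0.09 in TTR cells. Positive differences were 52.2% of the calls in the deposited values, 79.4% after median centring (54 higher, 14 lower) and 57% after quantile normalization (45 higher, 34 lower). Over all genes the shares were 29.4% higher and 6.92% lower after centring, and 21.4% and 12.5% after quantile normalization.

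The smallest p-value was that of ZNF296, whose TTR arrays read 5.46, 5.24 and 5.52 untreated and 5.89, 5.84 and 5.83 with TRAIL. Its rise was smaller in TTR cells by 1.50 on the log2 scale (−1.50 ± 0.17, limma adjusted p = 4.87e-06). ZNF844 read 4.13, 3.84 and 3.66 in untreated TTR cells and 4.39, 4.53 and 4.38 with TRAIL, with no overlap but no call (0.56 ± 0.19), and the difference was −1.55 ± 0.26 (limma adjusted p = 1.95e-04). The rises of ZNF460 and ZNF121 were called in both lines and differed by −0.96 ± 0.15 (limma adjusted p = 1.14e-04) and −0.96 ± 0.16 (1.95e-04), and that of ZNF417 by −1.04 ± 0.18 (2.33e-04). ZNF627 read 5.86, 5.93 and 6.27 in untreated TTR cells and 5.91, 5.69 and 5.66 with TRAIL. These groups overlapped, and the difference from the parental fall was 1.27 ± 0.18 (limma adjusted p = 4.87e-05). ZNF45 (1.27 ± 0.18, limma adjusted p = 3.63e-05) and ZNF155 (0.82 ± 0.14, 1.71e-04) also fell less in TTR cells.

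Without TRAIL, TTR cells had 16 of the genes called lower than parental cells and 0 called higher, in the limma fit. The shares were 6.87% and 0%, against 7.11% of all genes called, 3.47% lower and 3.64% higher. In genes of like level they were 3.06% and 3.75%. At an unadjusted limma p under 0.05, 48 of the genes were lower and 4 higher, against 1745 and 1730 of all 18417 genes. Of the 247 ZNF genes of other chromosomes 33 were lower and 16 higher at this p. The family's median change was −0.10, against −0.01 over all genes, and 71.2% of the family was below 0, against 53.4% of all genes. The ZNF genes of other chromosomes had 8 of 247 called lower and 4 higher, with 62.3% below 0, and the other chromosome 19 genes had 34 of 1075 lower and 14 higher. After median centring 14 of the genes were called, and after quantile normalization 13, and all of these were lower, against 3% and 2.93% of all genes lower and 3.97% and 3.44% higher. The unexplained tag in the sample descriptions differs between parental and TTR arrays. Its effect and that of the line cannot be told apart, here or in any other comparison of the lines.

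ZNF45 had the largest of these falls. It read 6.04, 6.12 and 5.90 on the untreated parental arrays and 5.02, 5.07 and 4.75 on the untreated TTR arrays, with no overlap. The change was −1.08 ± 0.13, or 2.11-fold lower (limma adjusted p = 6.29e-05). With TRAIL, parental cells at 4.73, 4.78 and 4.41 overlapped TTR cells at 4.89, 4.97 and 4.63, and the change was 0.19 ± 0.13, not called. ZNF227 read 6.61, 6.80 and 6.33 in untreated parental and 5.80, 5.88 and 5.69 in untreated TTR cells, a change of −0.79 ± 0.11 without overlap (limma adjusted p = 3.94e-04). It was lower with TRAIL too, at 6.45, 6.45 and 6.61 in parental and 5.90, 5.97 and 5.93 in TTR cells (−0.57 ± 0.11, limma adjusted p = 4.39e-04). ZNF227 was thus lower in TTR cells under both conditions, and TRAIL itself gave no call for it in either line.

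ZNF550 read 6.23, 6.25 and 6.29 in untreated parental and 5.37, 5.62 and 5.50 in untreated TTR cells, a change of −0.76 ± 0.10 without overlap (limma adjusted p = 1.26e-04). ZNF284 changed by −0.69 ± 0.15 (limma adjusted p = 0.00903), a call that was lost without parental untreated array 1 (0.0521, with the range over its alternatives from 7.74e-04 to that value). ZNF551 changed by −0.66 ± 0.11, ZNF780B by −0.64 ± 0.10, ZNF155 by −0.62 ± 0.10 and ZNF529 by −0.58 ± 0.11. The other 8 called genes, named here because they complete the list, were ZNF121, ZNF788P, ZNF865, ZNF221, ZNF473, ZNF530, ZNF542P and ZNF790, with changes from −0.55 to −0.41. ZNF473, which takes part in the 3′ processing of histone RNA, was the weakest of the 16 calls (−0.42 ± 0.12, limma adjusted p = 0.0480). Without parental untreated array 1 limma called 10 of the genes, and with array weights 34, among them all 16. Shares of all genes under these fits were not counted.

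The genes lie in runs along the chromosome, here taken as neighbours with at most 5 other annotated protein-coding genes between them. There were 24 runs, and the 8 with at least 8 of the genes held 194 of the 233. The 17 genes from ZNF283 to ZNF180, with no other measured gene between them, held 5 of the 16 calls in untreated TTR cells: ZNF45, ZNF221, ZNF155, ZNF284 and ZNF227. Of the 17, 14 were below 0, and their median change was −0.36, while the medians of the other 7 runs lay between −0.12 and 0.01. The 10 measured genes before ZNF283, ZNF576 and ZNF428 of the family among them, had a median of 0.02, and the 10 after ZNF180 a median of −0.02. The limma test called 0 of either, and 1 before and 0 after had an unadjusted p under 0.05, against 10 of the 17. This run was singled out after its values were seen, so it carries no test. The calls in it were 3 without parental untreated array 1, 8 without array 3 and 10 with array weights, and its median stayed between −0.46 and −0.30 when any 1 array was left out. The other 12 were not called, among them ZNF180 (0.03 ± 0.13) and ZNF224 (−0.03 ± 0.16). Under TRAIL the run's median difference between the lines was −0.12, with 4 of the 17 called lower and 0 higher. The 10 genes before it had a median of −0.10 there, with 3 lower and 1 higher. The 10 after it had a median of −0.27, with 4 lower and 0 higher. Of all genes 26.4% were lower in this comparison and 28% higher.

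**Figure D4:**
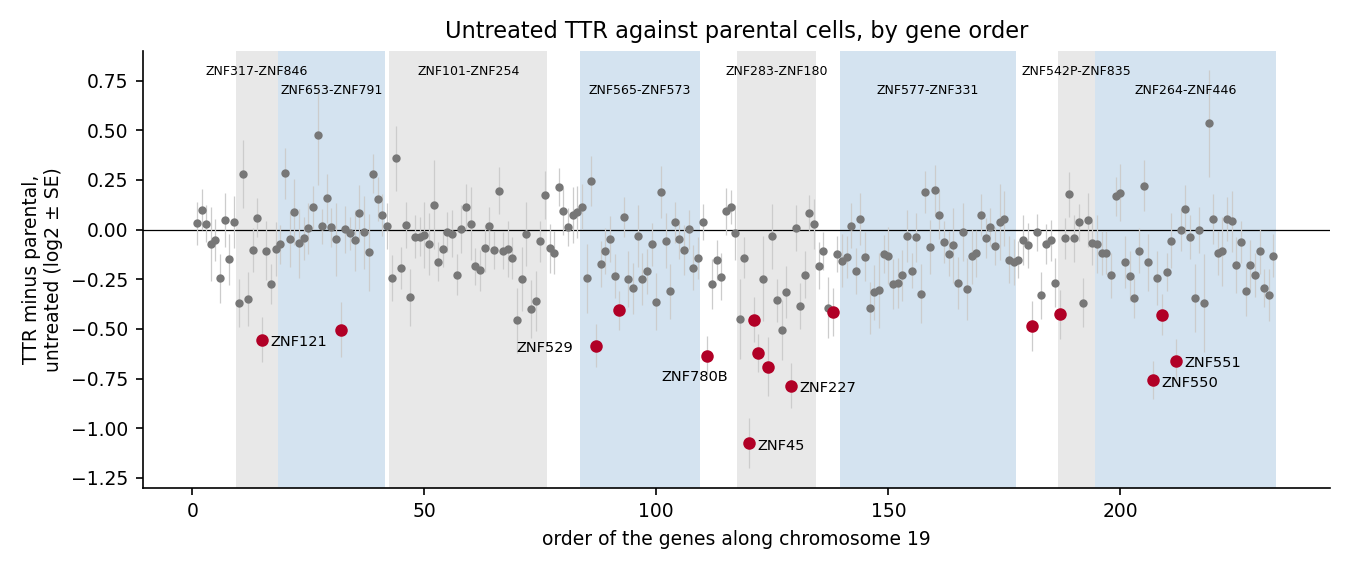
Change of each of the 233 genes in untreated TTR against parental cells (log2, error bar SE), in the order of the genes along chromosome 19, with the 8 runs of at least 8 genes shaded and labelled by their first and last gene. Red points are the 16 called genes, all below 0, and 5 of them stand in the run from ZNF283 to ZNF180.

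For TRAIL in parental cells the counts of each run stand against 28.9% of all genes called higher and 29.9% lower, and differences between runs were not tested. The 38 genes from ZNF577 to ZNF331 had 16 called lower and 3 higher (median −0.23), and the 26 from ZNF565 to ZNF573 had 13 lower and 3 higher (median −0.31). Both medians were also below 0 after quantile normalization, at −0.44 and −0.46. Median centring lowered the change of every gene by the same amount here, so it could not have turned a median below 0. The 39 genes from ZNF264 to ZNF446, which include ZNF460, ZNF417, ZNF814 and ZNF324, had 15 higher and 10 lower with a median of 0.15. That median was −0.14 after centring (9 higher, 16 lower) and 0.05 after quantile normalization (14 and 12), so its direction depended on scaling. The 23 from ZNF653 to ZNF791 had 8 higher and 4 lower with a median of 0.13. After centring they had 5 and 9 (median −0.16), after quantile normalization 6 and 8 (median −0.08), and without parental untreated array 3 the median was −0.01. The 34 from ZNF101 to ZNF254 had 9 higher and 5 lower (median 0.01), 5 and 17 after centring (median −0.28) and 8 and 9 after quantile normalization (median −0.07), and without parental TRAIL array 3 the median was −0.03. The 9 from ZNF317 to ZNF846 had 2 higher and 5 lower, the 17 from ZNF283 to ZNF180 had 1 and 6 (1 and 10 after centring, 1 and 9 after quantile normalization), and the 8 from ZNF542P to ZNF835 had 1 and 4.

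With TRAIL in both lines, 30 of the genes were called higher in TTR than in parental cells (12.9%) and 67 lower (28.8%). Of all genes 54.4% were called, 28% higher and 26.4% lower, and of genes of like level 20.7% were higher and 33.1% lower. The median was −0.10, against −0.07 over all genes. This split too depended on scaling, with higher levels in TTR cells in 30.9% of the calls as deposited, 62.7% after median centring (69 higher, 41 lower) and 49.1% after quantile normalization (52 higher, 54 lower). Of all genes 37.1% were higher and 13% lower after centring, and 27.8% and 19.4% after quantile normalization. The comparison shares its parental arrays with the test of TRAIL in parental cells, so that large parental changes enter both. ZNF296 (−1.68 ± 0.12), ZNF844 (−1.60 ± 0.19), ZNF121 (−1.51 ± 0.11), ZNF550 (−1.22 ± 0.10), ZNF324 (−1.13 ± 0.13), ZNF460 (−1.07 ± 0.11), ZNF814 (−1.06 ± 0.27) and ZNF417 (−0.98 ± 0.13) were the largest falls. ZNF627 (1.55 ± 0.13), ZNF146 (1.09 ± 0.17), ZNF528 (0.89 ± 0.13), ZNF699 (0.83 ± 0.17), ZNF468 (0.80 ± 0.19), ZNF583 (0.77 ± 0.11), ZNF304 (0.75 ± 0.10) and ZNF383 (0.74 ± 0.11) were the largest rises, and ZNF304 is known as a repressor of the INK4A locus. All 16 kept their call and direction under the alternatives fitted gene by gene. Of the 233 genes 9 passed 2-fold, a cut for which the share of all genes was not counted.

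ZNF550 was lower in TTR cells at both conditions, and with TRAIL it read 6.88, 6.75 and 6.77 in parental and 5.62, 5.46 and 5.65 in TTR cells. Of the 16 genes lower in untreated TTR cells, 6 were called lower with TRAIL as well (ZNF121, ZNF221, ZNF227, ZNF550, ZNF551 and ZNF865), which is 37.5% of the 16 and 8.96% of the 67. With TRAIL the limma fit called 0 of the 16 higher, and 0 were above 0 at an unadjusted p under 0.05. The untreated and the treated comparison share no arrays, and their overlap was not counted over all genes.

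The partners of KRAB zinc finger proteins were read beside the family, from a list of 30 genes of which 27 were measured. With TRAIL in parental cells 6 of the 27 were called higher and 13 lower (median −0.29), against 28.9% and 29.9% of all genes. In TTR cells 3 were higher and 1 lower, against 3.27% and 2.55%. The TTR change was called above the parental one for 13 and below it for 0 by limma, against 22.9% and 14.3% of all genes. At an unadjusted limma p under 0.05 it was above for 14 and below for 2, against 4723 and 3586 of all 18417 genes. After median centring the parental counts were 2 higher and 17 lower and those of the difference 15 and 0. After quantile normalization they were 7 and 13, and 11 and 2. TRIM28, the co-repressor that KRAB binds, was not called for TRAIL in parental cells (0.03 ± 0.10) or in TTR cells (0.02 ± 0.10). It was lower in TTR than in parental cells without TRAIL (−0.24 ± 0.10, limma adjusted p = 0.173) and with it (−0.25 ± 0.10, 0.0369), where only the second was called. SETDB1 changed by −0.35 ± 0.10 with TRAIL in parental cells (limma adjusted p = 0.00633) and by −0.34 ± 0.10 in untreated TTR cells, where it was not called (0.0505). The lowest p-values for TRAIL in parental cells were those of the histone demethylase KDM1A (−1.60 ± 0.12), SMARCAD1 (−1.23 ± 0.10), the deacetylase HDAC2 (−1.62 ± 0.13) and the HP1 gene CBX5 (−1.38 ± 0.11). In TTR cells UHRF1 (0.75 ± 0.12), CHD3 (0.70 ± 0.16) and CHD4 (0.68 ± 0.17) were called higher and SMARCAD1 (−0.34 ± 0.10) lower. In untreated TTR cells 2 of the 27 were called higher, the HP1 genes CBX3 (0.41 ± 0.09) and CBX5 (0.44 ± 0.11). The limma fit called 0 lower, against 3.64% of all genes higher and 3.47% lower. At an unadjusted limma p under 0.05, 4 of the 27 were above 0 and 6 below it, against 1730 and 1745 of all 18417 genes. With TRAIL 13 were higher and 5 lower in TTR than in parental cells, against 28% and 26.4%. The partners were not weighted by level, and their mean levels ran from 4.69 (MPHOSPH8) to 9.87 (TRIM28). Of 8196 genes outside the family at 5.52 and above, 22.3% were higher and 56.7% lower with TRAIL in parental cells. For the difference these shares were 46.9% and 13.4%, and for the treated lines 53.9% and 20.8%. The partners' counts are therefore not read as particular to them.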

How the data were processed

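The deposited log2 values came from the authors' run of RMA in Affymetrix Power Tools, per the submitters' processing notes. The build and the settings were not given in the sources used here. RMA makes values relative to the rest of the array, so that changes in total RNA per cell are not seen. The table held 33252 features, of which 19460 named 1 gene and 1754 several. The feature with the highest mean over the 12 arrays was kept per gene. No filter on low values was used, 0 pairs of arrays were identical and 0 columns were without a sample.

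One model over the 12 arrays (limma 3.58.1 under R 4.3.3, with lmFit, eBayes, a mean for each group and no block) left 8 residual degrees of freedom, beside 7.87 prior ones. Tests were two-sided, with Benjamini-Hochberg adjustment over 18417 genes. With 3 arrays a side, the smallest p of an exact permutation test is 0.1, so none was used. The number of arrays limits the precision. Other genes were weighted, by twentieth of the mean level, to the distribution of the 233 genes. The members, lists and tests were chosen with earlier results of these data known.

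Named genes were the up to 8 largest rises and falls per pairwise comparison among called genes without overlap, the 8 smallest p-values for the difference between the lines, the 3 highest and 3 lowest means, and the first and last gene of each run. Of the KRAB partner list they were TRIM28, SETDB1 and the 4 smallest p-values per comparison, not all of which are printed. Genes outside this rule are marked in the text. Same-numbered arrays of the TTR groups deviated together (r = 0.146 to 0.395), so the numbers were taken to pair them, though the main fit held no block. In the other comparisons at least 1 pair stood at 0.1 or below (r = 0.0561 to 0.107 for the parental groups, −0.0332 to 0.373 for the untreated lines and −0.00749 to 0.141 for the treated lines), so there the numbers pair no arrays. A planned description by protein features was not made, since protein sequences were not used here. Figures were drawn with matplotlib 3.10.9.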

Additional observations from a re-analysis of the deposited data

Results flagged for a closer look

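The TRAIL change differed between the lines, by the limma test of the difference itself, for 67 of the 233 genes. Among them were 24 of the genes named by rule for the size of a change or the p-value of the difference. Others mentioned above, such as ZNF350, ZNF221 and ZNF556, were also called and are not listed here. The values below are the TTR change minus the parental change on the log2 scale. Among genes that rose in parental cells the difference was −1.59 for ZNF814, −1.55 for ZNF844, −1.50 for ZNF296, −1.04 for ZNF417, −0.97 for ZNF442, −0.96 for ZNF121, −0.96 for ZNF460, −0.80 for ZNF324, −0.54 for ZNF526 and −0.47 for ZNF550. Among genes that fell there it was 1.33 for ZNF146, 1.27 for ZNF45, 1.27 for ZNF627, 0.96 for ZNF416, 0.96 for ZNF675, 0.92 for ZNF528, 0.88 for ZNF468, 0.82 for ZNF155, 0.82 for ZNF383, 0.75 for ZNF780B, 0.59 for ZNF304, 0.59 for ZNF583, 0.51 for ZNF415 and 0.41 for ZNF529. In all 24 the parental change was the larger, and this too was not counted over all genes. The parental arrays with TRAIL, which stand apart from the other arrays, enter each of these values, and their part was not tested.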

How the results depend on the processing

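Of the 58 named results, 50 kept their direction and call under every alternative run for them, and 0 reversed. The 2-fold requirement was applied to counts only. The other 8 lost the call under at least 1 of them, 7 for TRAIL in TTR cells and ZNF284 in untreated TTR cells.

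Requiring a 2-fold change left 20 called genes for TRAIL in parental cells, 0 in TTR cells, 1 between the untreated lines, 9 between the treated lines and 7 for the difference. No share of all genes was counted at this cut. TRAIL in TTR cells gave 28 calls after median centring, 35 with array weights, 24 with the replicate number as a block and only the TTR groups, 12 with the replicate block in the fit of all arrays, and 17 without the parental TRAIL arrays. Untreated TTR against parental cells gave 34 with array weights. The replicate block changed no other count by over 1.5 times. The last 2 TTR fits of this kind, without the parental TRAIL arrays and with only the TTR groups under the block, were chosen after seeing the data. Beyond the 2 scalings, shares of all genes were not counted under the alternative fits, here or with 1 array left out.

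With 1 array left out, called genes numbered 113 to 129 for TRAIL in parental cells, 3 to 14 in TTR cells, 10 to 19 for the untreated lines, 87 to 97 for the lines with TRAIL and 56 to 74 for the difference. The family's median ran from −0.02 to 0.04, −0.02 to 0.02, −0.12 to −0.07, −0.11 to −0.08 and −0.03 to 0.03.

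After median centring the family's median change was −0.29 for TRAIL in parental cells, −0.10 in TTR cells, 0.10 for the treated lines and 0.17 for the difference. After quantile normalization these were −0.12, −0.07, 0.0069 and 0.0732.

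Levels near the bottom of the range have no detection call, and 3 arrays per group limit what small changes can be called.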

Other observations

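The 8 transcribed pseudogenes among the 233 genes were read apart, a split chosen after the values were seen. With TRAIL in parental cells 3 of the 8 were called higher and 3 lower, against 28.9% and 29.9% of all genes. ZNF702P (−0.94 ± 0.12) and ZNF542P (−0.98 ± 0.12) fell, ZNF788P changed by −0.58 ± 0.14, and ZNF833P and ZNF826P rose. In untreated TTR cells 2 of the 8 were called lower, ZNF542P and ZNF788P, against 3.47% of all genes. ZNF788P read 6.55, 6.58 and 6.57 on the untreated parental arrays and 6.29, 5.97 and 5.92 on the untreated TTR arrays, with no overlap. ZNF564, also chosen after its values were seen, was 1 of the genes whose TRAIL change had opposite signs in the lines, with a called rise of 0.48 ± 0.11 in parental cells and −0.33 ± 0.11 in TTR cells, which was not called. The difference of −0.80 was called (limma adjusted p = 7.00e-04).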
